A study of Homo sapiens with 2 samples.

Results

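The transcript of NUCKS1 carried RBMS3-binding sites in 11 separate clusters along its 3′UTR in MDA-MB-231 cells, a long-established human line from a triple-negative breast cancer. NUCKS1 was chosen by its number of 3′UTR clusters in the same list of sites, so that number and the positions behind it are a description and not a finding. The study mapped the RNA that RBMS3 touches by CLIP-seq, in which cells are irradiated with ultraviolet light to fix proteins to RNA, the protein is pulled down and the RNA left on it is sequenced. All cells carried FLAG-tagged RBMS3, stably expressed from a lentiviral vector with the tag at the N terminus, in a line that also makes its own RBMS3. There was 1 group of 2 biological replicates. The source and cell line labels of replicate 2 read MDA-MB-232, whereas its title reads MDA-MB-231, and it was used as its title says.

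The deposited values were a single list called on the pooled tags of both replicates. No value below therefore has an error between replicates, no test between conditions could be made, and a control library was not part of the comparison. Each row of the list is the position of a deletion, with 2 counts, of the tags over it (sequenced RNA fragments after removal of duplicates) and of those that lack the base. Of 27706 sites in the list, 21230 lay in 3′UTRs and 32 of these in the 3′UTR of NUCKS1. A further 7 lay in its coding sequence, so that 39 sites were on the transcript strand of the gene. None was in an intron or on the opposite strand. The gene spans chr1:205712822-205750182 on the minus strand (hg38), and its 3′UTR, chr1:205712822-205718282, is 5461 nt long with the stop codon. Positions below are counted along the transcript from the first base of the stop codon. The annotation gives the 3′UTR to a single transcript with a single 3′ end. A second transcript, without a coding sequence, ends upstream of the stop codon, at 205718452.

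RBMS3 is an RNA-binding protein of the RBMS family, which binds single-stranded nucleic acid rich in A and U through RNA recognition motifs, and members of this family act on the stability of mRNAs through their 3′UTRs. NUCKS1 encodes a nuclear, DNA-binding protein that is heavily phosphorylated by casein kinase 2 and cyclin-dependent kinases, and that acts in chromatin regulation and in repair by homologous recombination. A poly(A) signal is the hexamer, most often AATAAA and less often ATTAAA, that directs cleavage of the transcript and addition of the poly(A) tail a short way downstream. In this assay the trimmed RNA was given a poly(A) tail and captured on oligo(dT) beads, so that stretches of A that were already in the RNA could be captured in the same way.

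The sequence around the site with the most deletions is printed below for 10 of the 11 clusters, because the clusters differed in what the transcript reads there. Clusters are numbered from the stop codon to the transcript end. Each window has 14 nt on either side of the deletion, is given on the transcript strand as the hg38 reference reads, and shows in capitals the run of identical bases that holds the deletion. Where a deletion falls in such a run its place within the run cannot be told, and in all 23 sites of this 3′UTR in runs of 2 or more bases the list placed it at the last base of the run.
Cluster 1 (chr1:205718247-205718275, minus strand): gatgatggtctGGGGagagattttattaa
Cluster 2 (chr1:205717523-205717551, minus strand): gccagtgatccTTTTatcctgctacagtc
Cluster 4 (chr1:205716757-205716785, minus strand): catctaataccaggCgctaatgggaacaa
Cluster 5 (chr1:205715400-205715428, minus strand): acatctcctcatttCatatttccactcca
Cluster 6 (chr1:205714485-205714513, minus strand): tacacTTTTTTTTTTcaaattcacaaaat
Cluster 7 (chr1:205713829-205713857, minus strand): tgttctgagcaggAAgggtaaaagacagg
Cluster 8 (chr1:205713440-205713468, minus strand): acaaactcctgcTTTgcttttattgaagg
Cluster 9 (chr1:205713360-205713388, minus strand): ctttgcttgtaTTTTgtattaaaaaaata
Cluster 10 (chr1:205713201-205713229, minus strand): tttaaaaatggcTTTataaaagggctttt
Cluster 11 (chr1:205712817-205712845, minus strand): taaaagataatgTTTatactcacagaaca

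Clusters 1 to 3 and 8 to 11 lay toward the ends of the 3′UTR, with 756 tags or more at each site but that at position 4978, whereas clusters 4 to 7 were thinly covered single sites in between. The first 1000 nt held 15 sites in 3 clusters and the last 1000 nt held 13 sites in 4 clusters. The 3461 nt between them held 4 sites, none with more than 111 tags. Sites of one cluster lie within 50 nt of a neighbour. The widest gap inside a cluster was 49 nt, in cluster 10, and the narrowest gaps between clusters were 69 nt, on both sides of cluster 9. Clusters 1 and 10 together held 16 sites and 65.0% of the 4580 deletions counted over the 3′UTR, while clusters 4 to 7 held 82 deletions, 1.79%.

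**Figure D1:**
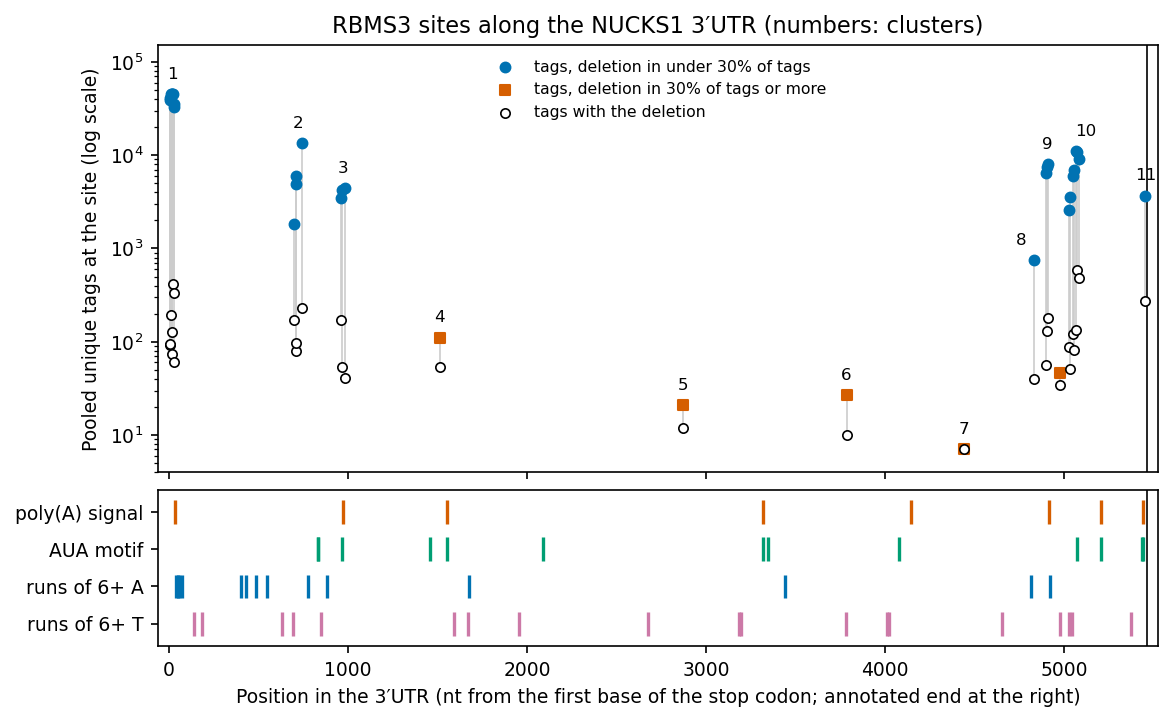
RBMS3 sites along the NUCKS1 3′UTR. The upper panel plots, for each of the 32 sites, the pooled tags that cover it (filled) and those with the deletion (open) on a log axis against the position in nt from the stop codon; numbers name the 11 clusters, and the black line at the right is the annotated end. The lower panel marks poly(A) signals, matches of the AUA motif and runs of 6 or more A or T. The sites with 756 tags or more sit in the first and last 1000 nt, and the orange squares, with 7 to 111 tags, lie between them except for the site with 46 tags in cluster 10.

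Cluster 1 held the most deeply covered of the listed sites of the gene and lay directly behind the stop codon. Tag counts are known only at listed sites. Its 8 sites, at positions 7 to 32, were covered by 33091 to 45702 tags, more than at 93.2% to 96.7% of all 3′UTR sites. Deletions were few relative to this depth. At position 22, in a run of 4 G, 413 of 44818 tags carried the deletion (0.921%, 95% Wilson interval 0.837 to 1.01%). At position 31, in a run of 4 T, it was 336 of 35684 tags (0.942%, interval 0.847 to 1.05%), and these intervals overlap. The other 6 sites were lower, between 0.162% at position 17 (74 of 45702 tags, a deleted C) and 0.435% at position 15 (195 of 44863 tags). All Wilson intervals here cover counting error only, and sites of one cluster share tags.

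The transcript reads ATTAAA at positions 32 to 37, beginning at the last site of this cluster. It continues with runs of 11, 9, 6 and 8 A between positions 35 and 78. The coverage did not end at the stop codon. A pair of coding sites, 6 and 12 nt upstream of it, had 31506 tags with 100 deletions and 26399 tags with 140 deletions, so that 10 sites within 50 nt of the stop codon on either side were covered by 26399 to 45702 tags. Sites so close behind a stop codon were uncommon in the list. Of the 32 NUCKS1 sites 8 (25%) lay within 50 nt downstream of it, compared with 2.68% of all 3′UTR sites. These 8 are all in cluster 1, and with 1 site per cluster the count was 1 of 11. Among 313 genes with a site in that position, 3 had more such sites than NUCKS1, and 7 had a higher tag count there.

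Cluster 2 lay at positions 698 to 746 and showed coverage that rose along the transcript. At position 698, at the end of a run of 6 T, 173 of 1807 tags carried the deletion, and this 9.57% (interval 8.30 to 11.02%) was the highest percentage among the 27 sites under 30%. Positions 710 and 713 had 80 of 4916 tags (1.63%) and 98 of 5922 tags (1.65%). At position 746 there were 230 deletions in 13362 tags (1.72%, interval 1.51 to 1.96%). The last 3 sites had overlapping intervals, below that of position 698. The tag count at the last site was 7.395 times that at the first, and the longest run of A in the 3′UTR, 15 nt at positions 772 to 786, begins 26 nt after the last site. No poly(A) signal and no AUA motif lay in the window of any site of this cluster.

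Cluster 3 lay on an internal AATAAA, at positions 968 to 973. Its first site, at position 962, lay 4499 nt before the annotated end and 6 nt upstream of the signal, and had 170 deletions in 3485 tags (4.88%, interval 4.21 to 5.64%). The second, listed at position 969, was a deleted A with 53 of 4188 tags (1.27%). It lies in a run of 3 A that reaches into the signal, and the first A of the run is outside it. The third, at position 984, had 41 of 4398 tags (0.932%). Coverage differed by only 1.26 times within the cluster, whereas the percentage fell from the first site to the last, and the interval of the first did not overlap those of the others. No annotated transcript ends at this signal.

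**Figure D2:**
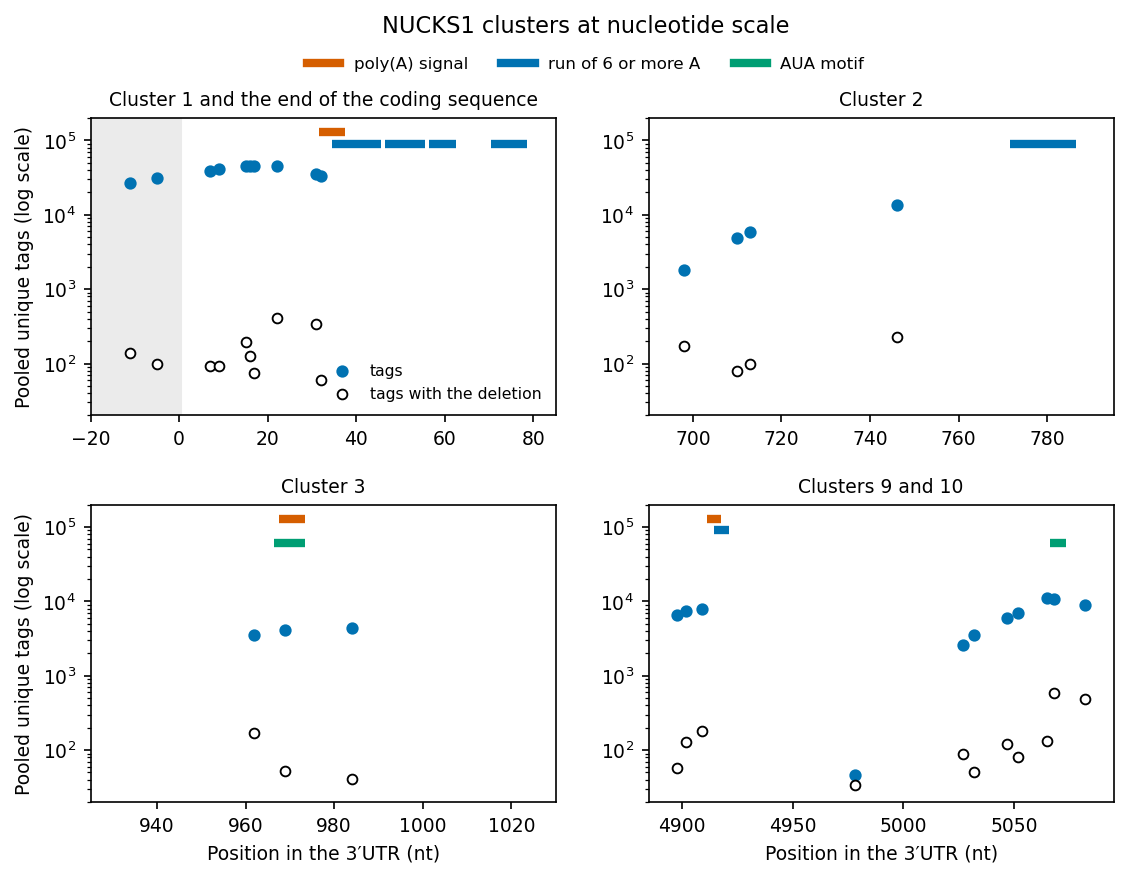
Close-up of clusters 1, 2, 3, 9 and 10. Each panel plots the tags that cover a site (filled) and those with the deletion (open) on a log axis against the position in the 3′UTR in nt; in the first panel the grey area is coding sequence, with the base before the stop codon at 0. Bars at the top mark poly(A) signals, runs of 6 or more A and the AUA motif. Coverage rises from 1807 to 13362 tags along cluster 2, which lies upstream of the run of 15 A. It also rises in cluster 10, from 2616 tags at position 5027 to 11130 at position 5065, without a run of 6 or more A behind these sites. Deletions in cluster 10 peak at 592 in a run of T that overlaps the AUA motif.

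The middle of the 3′UTR held only thin sites with high percentages. At position 1512 (cluster 4) 53 of 111 tags carried a deleted C (47.7%, interval 38.7 to 57.0%). At position 2869 (cluster 5) it was 12 of 21 tags, again a deleted C (57.1%, interval 36.6 to 75.5%). At position 3784 (cluster 6), the end of a run of 10 T, it was 10 of 27 tags (37.0%, interval 21.5 to 55.8%). At position 4440 (cluster 7), in a run of 2 A, all 7 tags had the deletion, which allows a share as low as 64.6%. These wide intervals show how little 7 to 111 tags fix, and they all overlap each other except those of clusters 4 and 6 with that of cluster 7. With the site at position 4978, these were the 5 NUCKS1 sites with deletions in 30% or more of the tags (15.6% of 32, compared with 12.9% of all 3′UTR sites). No 3′UTR site of the list had fewer than 7 deletions, so a site with 7 tags could be listed only at 100%. None of their windows held a poly(A) signal or the AUA motif.

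Toward the end of the transcript the listed sites again had more tags. Cluster 8 was a single site at position 4829, with 40 of 756 tags (5.29%, interval 3.91 to 7.12%). Cluster 9 held 3 sites at positions 4898, 4902 and 4909, upstream of an ATTAAA at positions 4912 to 4917 that runs into 7 A. From the first to the last, deletions rose from 57 of 6482 tags (0.879%) and 129 of 7486 tags (1.72%) to 178 of 7998 tags (2.23%, interval 1.92 to 2.57%). Here both the depth and the percentage were highest at the site nearest to the signal, 3 nt away.

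Cluster 10 held the sites with the most deletions of the gene by number, though not by percentage. A run of 3 T, listed at position 5068, overlaps the AUA match TTATAAA at positions 5067 to 5073, and the first T of the run is outside the match. There a T was deleted in 592 of 10722 tags (5.52%, interval 5.11 to 5.97%), more deletions than at 98.0% of all 3′UTR sites. Position 5082, 9 nt behind the motif, had 482 deletions in 9066 tags (5.32%, interval 4.87 to 5.80%), which overlaps the former. Position 5065, which is 3 nt upstream of position 5068 as listed, had 133 deletions in 11130 tags (1.19%, interval 1.01 to 1.41%). The depth was thus nearly the same at both listed positions, whereas deletions differed by 4.45 times. Upstream of them, at positions 5027 to 5052, 4 sites in runs of 4 to 9 T had 51 to 121 deletions each, in 1.17% to 3.36% of 2616 to 6941 tags. Tag counts rose from each of these sites to the next and reached 11130 at position 5065. The first site of the cluster stood apart, with 34 deletions in 46 tags at position 4978 (73.9%), 49 nt from a site with 2616 tags.

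Cluster 11 was the only one at the annotated end. Its single site, at position 5452, lay 9 nt before the end and 11 nt behind the AATAAA at positions 5436 to 5441, and had 274 T deletions in 3696 tags (7.41%, interval 6.61 to 8.30%). The printed window of this site runs past the annotated end by 5 nt of genome. The next site upstream was 370 nt away. In all, 1 of 32 NUCKS1 sites (3.12%) lay within 100 nt of an annotated 3′ end, compared with 69.3% of all 3′UTR sites, when the ends of all annotated transcripts of a gene were used. The median distance to the end was 3270.5 nt for NUCKS1 sites and 34 nt for all 3′UTR sites. This share and this median both depend on the choice of NUCKS1 for many separate clusters along a 3′UTR with 1 annotated end.

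Poly(A) signals and the AUA motif were then located over the whole 3′UTR. The AUA motif is a heptamer with A, G or T first, then A or T, then ATA, then A or T, and then A. Some of its forms contain AATAAA, so that a match can be a poly(A) signal as well. Both were searched on the transcript strand. The 3′UTR holds 5 AATAAA and 3 ATTAAA, and 5 of these 8 signals had a site within 50 nt. The signals without one lay at positions 3313, 4139 and 5201. Of 13 AUA matches 5 had a site within 50 nt, among them 2 of the 8 that do not contain AATAAA. The pair of overlapping matches at positions 828 and 830 had their nearest site 82 and 84 nt away. In all, 8 of the 13 AUA matches had no listed site within 50 nt, and the depth at them is not known. The share of all 3′UTR positions within 50 nt of a site is not given here. These counts, and those for runs of A and T below, therefore have no background beside them and are a description only.

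Seen from the sites, 15 of 32 windows (46.9%) of 25 nt on each side held AATAAA or ATTAAA, compared with 65.4% of the windows of all 3′UTR sites and 6.94% of the windows around every position of the NUCKS1 3′UTR. These were the sites of clusters 1, 3, 9 and 11. The windows of the sites at positions 7 and 9 end before the ATTAAA at positions 32 to 37 is complete. They counted through another ATTAAA, which begins upstream of the stop codon and overlaps it. That hexamer is not among the 8 signals of the 3′UTR. The AUA motif was in 8 windows (25%), compared with 51.7% over all 3′UTR sites and 8.92% of NUCKS1 3′UTR positions. A match that does not contain AATAAA was in 5 windows (15.6%, compared with 15.5%), 4 of them in cluster 10 and the other in cluster 11. Neither element was in the window of 13 sites, which were those of clusters 2 and 4 to 8 and the first 4 of cluster 10. Windows of neighbouring sites overlap, so that the sites do not count as independent stretches of sequence. With 1 site per cluster, 4 of 11 windows held a poly(A) signal and 3 the AUA motif.

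Some of the sites had a run of A downstream. In 12 sites (37.5%) the 40 nt behind the deletion held a run of 6 or more A, compared with 9.43% of all 3′UTR sites and 7.91% of NUCKS1 3′UTR positions. They were the 8 sites of cluster 1, the last site of cluster 2 and the 3 sites of cluster 9. With 1 site per cluster the count was 3 of 11. These 12 sites were covered by 6482 to 45702 tags (median 37551.5) and the other 20 by 7 to 11130 tags (median 3636), so that the groups overlapped. The former median rests on cluster 1, since the other 4 sites had 6482, 7486, 7998 and 13362 tags. No site of clusters 3, 10 and 11 had such a run, although cluster 10 reached 11130 tags. Over all 3′UTR sites the medians were 5989.5 tags with such a run and 4822.5 without. The 3′UTR has 14 runs of 6 or more A, and 7 of them had a site within 50 nt. A run of 13 A at positions 875 to 887 had none, its nearest site being 75 nt away. The part that capture by oligo(dT) has in the coverage near these runs was not tested.

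The deleted base was T at 20 of the 32 sites (62.5%), compared with 65.5% of all 3′UTR sites and with 34.8% T in the NUCKS1 3′UTR. A and C were deleted at 5 sites each and G at 2. At the 9 sites whose base differed from both neighbours the share of T was 22.2%. T deletions lay mostly in short runs: 15 of the 20 were in runs of 3 or more T, a share of 75% against 69.6% of the T deletions in all 3′UTR sites. Not every run of T had a listed site nearby, and the depth at runs without a site is not known. Of 19 runs of 6 or more T in the 3′UTR, 5 had a site within 50 nt, and the longest, 19 nt at positions 179 to 197, had none nearer than 147 nt.

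**Figure D3:**
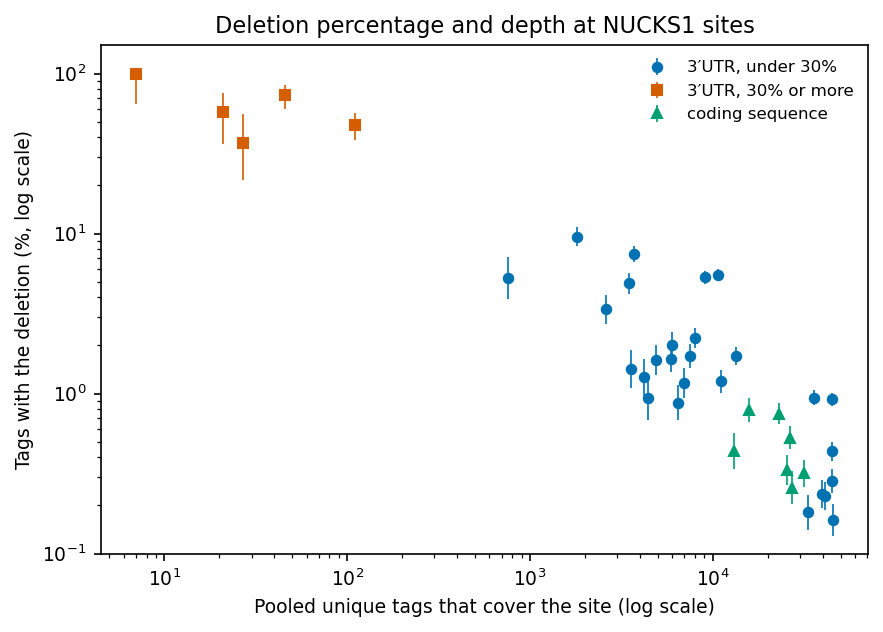
Deletion percentage against depth for the 39 NUCKS1 sites. Each point is a site, with the tags that cover it on the x axis and the percentage with the deletion on the y axis, both log; bars are 95% Wilson intervals. The 5 orange squares lie at 111 tags or fewer, and the coding sites (green) lie with cluster 1 at the lowest percentages, between 0.258% and 0.789%.

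The percentage with the deletion had a median of 1.69% over the 32 sites (quartiles 0.930 and 5.37%), against 1.96% over all 3′UTR sites (quartiles 0.786 and 4.80%). Tag counts had a median of 6235.5 against 4925.5, and deletions a median of 93.5 against 64. All 3 medians of NUCKS1 lay between the quartiles of all 3′UTR sites. Tag counts had quartiles of 3267.8 and 18294.2 in NUCKS1 and of 1521.2 and 13019 over all 3′UTR sites. Since the library holds RNA bound by RBMS3 without an input sample, tags reflect the abundance of the transcript, or of a piece of it, as well as binding, and these cannot be told apart.

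NUCKS1 also had 7 sites in its coding sequence, a region that held 681 sites in 476 genes. Only 7 genes had more. Of the 7, 2 were the sites before the stop codon described above and 5 lay in the penultimate exon (chr1:205719527-205719676). The 5 were covered by 12984 to 27111 tags and had 57 to 172 deletions each. The highest number was at chr1 position 205719614, with 172 of 23018 tags (0.747%, interval 0.644 to 0.867%), where the transcript reads as follows.
Coding site (chr1:205719600-205719628, minus strand): gtgactatggcagTTcgaaaaagaaaaac
The depth of these sites differed from that of most coding sites in the list, which had a median of 21 tags and of 92.9% deletions, against 25576 tags and 0.439% for NUCKS1. The 20 nt downstream of the 7 coding sites held 6 to 15 A, the most at 205719614, against a median of 5 over NUCKS1 3′UTR positions. No run of A behind a coding site was longer than 5. None of the 7 windows held the AUA motif, whereas those of the 2 sites before the stop codon held a poly(A) signal.

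NUCKS1 shared the first place with RAB21, which encodes a small GTPase of endosomes, at 11 clusters among 6372 genes with a 3′UTR site, and 4 genes had 10. Without the sites at 30% or more it had 7 clusters and rank 5. By number of sites its rank was 3. CANX, which encodes the endoplasmic reticulum chaperone calnexin, and CALU, which encodes the calcium-binding protein calumenin, were the next by clusters and then sites. Likeness was measured only by the number of clusters, over 1 pooled list. RAB21 had 15 sites in a 3′UTR of 14616 nt, CANX 42 in 7076 nt and CALU 36 in 4309 nt. Per 1000 nt of 3′UTR this gave 2.01 clusters in NUCKS1, 0.753 in RAB21, 1.41 in CANX and 2.32 in CALU. Among the 138 genes with 5 or more clusters NUCKS1 ranked 17 by this density.

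The 4 genes differed in where the sites lay. Within 100 nt of an annotated end were 1 of 32 sites in NUCKS1, 0 of 15 in RAB21, 16 of 42 in CANX and 10 of 36 in CALU. CANX has 12 annotated ends in its 3′UTR, CALU has 4 and RAB21 has 3, against 1 in NUCKS1, which affects how near an end can be. Sites within 50 nt behind the stop codon and sites in the coding sequence were found in NUCKS1 (8 and 7) and not in the other 3 genes. A run of 6 or more A lay behind 12 sites in NUCKS1, 0 in RAB21, 4 in CANX and 8 in CALU. Median tag counts were 2049 in RAB21, 22094.5 in CANX and 17508 in CALU, against 6235.5 in NUCKS1. No test was made of these differences, because neighbouring sites share tags and are not replicates of a gene.

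**Figure D4:**
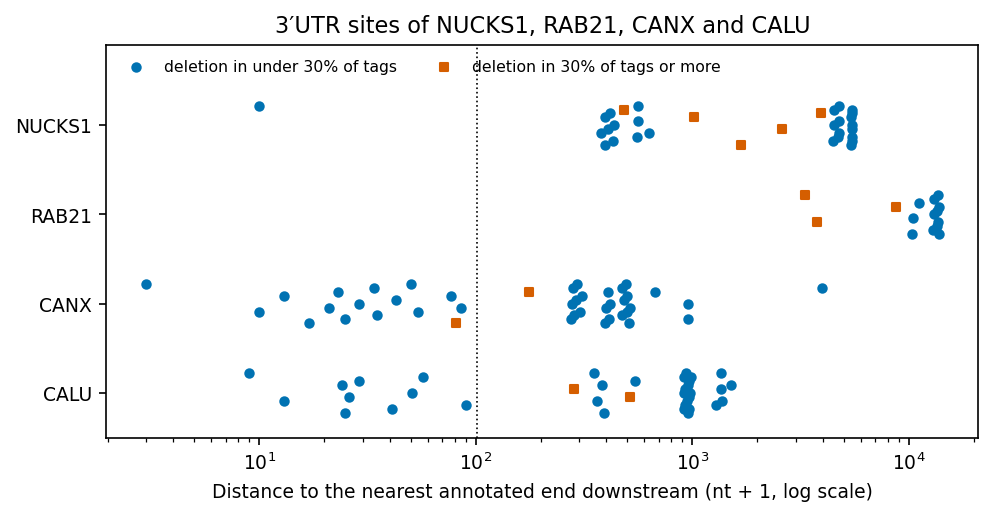
How far each 3′UTR site lies from the next annotated 3′ end (nt plus 1, log axis) in NUCKS1, RAB21, CANX and CALU. Each point is a site, orange squares have deletions in 30% or more of the tags, points are spread vertically only for view, and the dotted line is at 100 nt. NUCKS1 has 1 site left of the line and RAB21 none, whereas CANX has 16 and CALU 10.

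Finally, sites were counted in 7 genes whose products are tied to NUCKS1 in function. Of these, 5 had a 3′UTR site, where 31.9% of the 19958 protein-coding genes with an annotated 3′UTR did. The latter share counts all such genes, whether or not they are expressed in these cells, and the difference was not tested. CDK1, the mitotic cyclin-dependent kinase, had 19 sites in 3 clusters, and its strongest had 1553 of 36176 tags (4.29%, interval 4.09 to 4.51%). CDK2, CSNK2A1 and CSNK2B, which encode a cyclin-dependent kinase and subunits of casein kinase 2, had 3, 9 and 3 sites. In RAD54L, a motor protein of recombination, the only site had 8 of 8 tags. CSNK2A2 and SKP2 had none.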

How the data were processed

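Per the study's methods, the authors appended molecular identifiers to the reads of both replicates, ran the CLIP Tool Kit pipeline (version and aligner not given in the sources used here) against hg38 and called sites from deletions, filtered on false discovery rate and fold change. The name of the list gives its tags as unique and pooled. The values deposited by the authors are counts per site, of tags and of tags with the deletion, and are not normalized. Library totals were not analysed here. Since the tags were pooled, how each replicate contributed to a site is unknown.

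The deleted base was taken as the centre of each interval of 21 nt. Sites were placed by base and strand on GENCODE release 44, all transcripts, and counted for each gene whose 3′UTR holds them, with 3′UTRs taken before coding sequence. The reference is hg38, the build of the list. Sites within 50 nt formed a cluster. Windows had 25 nt on each side (51 nt). Percentages and 95% Wilson intervals were computed from the counts. Nothing was tested, since there is 1 group and 1 pooled list. NUCKS1P1, the annotated pseudogene of NUCKS1, held 0 sites.

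The text names NUCKS1 with the top site of each cluster, the 3 other genes with the most clusters (ties by sites, then symbol), and 7 genes tied to NUCKS1. The window of cluster 3 and 2 further genes of that list are not reported here. The gene and lists were chosen with earlier results of these data known. Alternatives were other cluster distances, windows, deletion minimums, ends and annotation, and 1 site per cluster. The functions were tested on made-up sequence with known answers. Python 3.11.15, numpy 2.4.6, scipy 1.17.1, pysam 0.24.0 and matplotlib 3.10.9 were used.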

Additional observations from a re-analysis of the deposited data

How the results depend on the processing

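The number of NUCKS1 sites fell to 5 with deletions in at least 10% of tags. The number of clusters was 18 when sites within 10 nt were joined, 7 with at least 50 deletions, 5 with deletions in at least 10% of tags and 7 with deletions in under 30% of tags. The rank of NUCKS1 by clusters was 3 when sites within 100 nt were joined, 17 by clusters per 1000 nt, 5 when only sites under 30% were kept and 4 with at least 20 deletions. The settings under 30% and the rank with at least 20 deletions were chosen after seeing the data. With windows of 10 nt on each side, the AUA motif was in 9.38% and a poly(A) signal in 18.8% of windows, since fewer bases were searched. T was deleted at 22.2% of the sites whose deleted base differed from both neighbours (the cause was not tested). For 1 site per cluster the median percentage with the deletion was 5.52%, where that site was the one with the most deletions (the cause was not tested). The other 20 alternative values stayed within 1.5 times the reported count or within its 95% interval. No paired analysis was possible because both replicates enter 1 pooled list, and for the same reason no replicate could be left out. Counting error is widest at the sites with 7 to 111 tags.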
